A study of Aspergillus nidulans with 6 samples.

Results

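The nitrate assimilation genes of Aspergillus nidulans were followed across mycelium given tyrosol and mycelium left untreated. The 6 genes are the nitrate reductase gene niaD (AN1006), the nitrite reductase gene niiA (AN1007), the nitrate transporter genes crnA (AN1008) and crnB (AN0399), the nitrite transporter gene nitA (AN8647) and the transcription factor gene nirA (AN0098). They were chosen by gene identifier from the 10988 features of the deposited table, and all 6 passed the filter on low counts. The tyrosol group was the wild type FGSC A4 with 35 mM tyrosol given in exponential growth, and the untreated group was the same strain without it. Both groups were shaken at 220 rpm and 37 °C in Barratt's minimal broth and were sampled as mycelium, 3 libraries each. Tyrosol, a phenolic alcohol related to tyrosine, is known as a signalling molecule of some fungi. Neither the length of the exposure nor the nitrogen source of the broth is stated in the labels.

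Aspergillus takes up nitrate through CrnA and CrnB and nitrite through NitA. Nitrate reductase turns nitrate into nitrite and nitrite reductase turns nitrite into ammonium, which enters metabolism through glutamine and glutamate. Transcription of the pathway is known to need NirA, which responds to nitrate, and the GATA factor AreA, which acts when preferred nitrogen sources such as ammonium or glutamine are scarce. The genes crnA, niiA and niaD form a cluster, and niiA and niaD are read in opposite directions from a shared promoter region.

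Both reductase genes and the transporter gene crnB were far lower with tyrosol, nitA was moderately lower and the regulator gene nirA was higher. The transporter gene crnA did not pass the test. Of the 6 genes, 4 fell and 1 rose at an adjusted p under 0.05 by edgeR's quasi-likelihood test. Tyrosol changed much of the transcriptome, with 83.5% of 8905 tested features called, so the count of 5 of 6 (83.3%) is at the background. Falls of at least 2-fold were called for 24.5% of features and for 3 of the 6 genes, and rises of that size for 23.1% of features and none of the 6. The RPKM values of the 2 groups did not overlap for 5 of the 6 genes and for 84.8% of tested features. The median log2 fold change, tyrosol over untreated, was -1.32 over the 6 genes and -0.04 over all tested features. Levels below are in RPKM, read counts scaled by gene length and by the counted reads of the library, as the authors deposited them. Fold changes are on the log2 scale with TMM scaling, given ± SE, and adjusted p-values are from the same edgeR fit over all features.

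The libraries held 9353438 to 11917409 counted reads, and each of the 6 genes had at least 516 reads in every library. Because the RNA came from whole mycelium, fewer cells using a gene and less RNA per cell cannot be told apart. The glyceraldehyde-3-phosphate dehydrogenase gene gpdA, abundant in growing hyphae, was at 1361 to 1538 RPKM with tyrosol and 3264 to 4211 RPKM untreated. The summed level of 6 conidiation and conidium markers was 132 to 168 RPKM with tyrosol and 213 to 244 RPKM untreated, most of it from the hydrophobin gene rodA, whose log2 fold change was -0.31. The rodA fall was called at an adjusted p of 0.019 by edgeR, but its groups overlapped with TMM scaling. The other tested markers fell further, with log2 fold changes of -0.99 for brlA, -1.49 for abaA, -1.96 for wetA and -2.58 for yA. The wetA value rests on 5 reads in each tyrosol library and 29, 24 and 16 reads untreated. All 5 tested markers thus fell, against 42.9% of all tested features lowered. The conidial gene dewA was at or near 0, between 0.134 and 0.394 RPKM with tyrosol and 0 to 0.254 RPKM untreated. Of 4 housekeeping symbols listed, only 1 (gpdA) had an entry in the gene table used for symbols, and 6 of 8 conidiation and conidium symbols did. Both gpdA and the marker sum were lower with tyrosol, and their part in the results below was not tested.

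**Figure D1:**
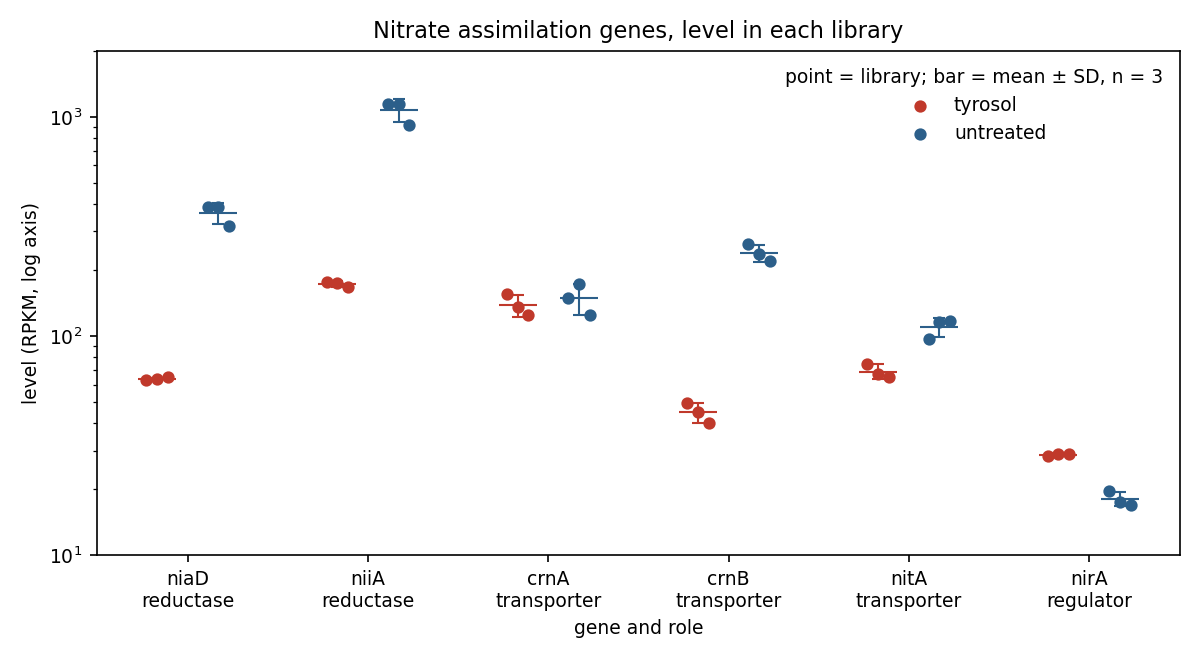
Level of each of the 6 genes in RPKM on a log axis, with a point for each library and a bar for the mean ± SD of 3 libraries, tyrosol in red and untreated in blue. The groups lie apart for niaD, niiA, crnB, nitA and nirA and overlap for crnA.

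Nitrate reductase, the first enzyme of the route, had its transcript niaD at 63.2, 63.5 and 64.7 RPKM in the tyrosol libraries, against 387, 388 and 318 RPKM in the untreated libraries. The tyrosol libraries lay within 1.52 RPKM of each other, and the groups did not overlap. The niaD transcript averaged 63.8 ± 0.805 RPKM with tyrosol and 365 ± 40.2 RPKM untreated (SD, n = 3 each), and the log2 fold change was -2.29 ± 0.10 (adjusted p = 1.3e-10). Among the 10748 genes with an AN number it ranked 1757 by mean RPKM with tyrosol and 321 untreated. Only 8.02% of tested features had a lower log2 fold change than niaD.

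Nitrite reductase, the second enzyme, was encoded by the most abundant transcript of the pathway in both groups. The niiA level was 177, 174 and 167 RPKM with tyrosol, against 1146, 1146 and 922 RPKM untreated. Untreated replicate 3 was the lowest of its group for both reductase genes, and still several times above every tyrosol library. The niiA mean was 173 ± 4.79 RPKM with tyrosol and 1071 ± 129 RPKM untreated (SD, n = 3 each), and its log2 fold change was -2.41 ± 0.10 (adjusted p = 1.3e-10). By mean RPKM niiA ranked 719 with tyrosol and 131 untreated.

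The pair of reductase transcripts kept nearly the same proportion within each library. The ratio of niiA to niaD, both in RPKM, was 2.80, 2.75 and 2.59 with tyrosol and 2.96, 2.95 and 2.90 untreated. These ratios do not depend on the scaling between libraries, and the groups lay apart by a small margin. The mean ratio was 2.71 ± 0.109 with tyrosol and 2.94 ± 0.034 untreated (SD, n = 3 each). A two-sided exact permutation test gave p = 0.10, the smallest p that 3 libraries against 3 allow, and 0.10 after adjustment over the 6 values tested this way.

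The transporter genes did not move together. The high-affinity nitrate transporter gene crnB had 49.8, 44.9 and 40.1 RPKM with tyrosol, against 262, 236 and 220 RPKM untreated. The groups were far apart, and the log2 fold change of crnB was -2.19 ± 0.10 (adjusted p = 3.4e-10). Its mean was 44.9 ± 4.81 RPKM with tyrosol and 239 ± 21.1 RPKM untreated (SD, n = 3 each), which took crnB to rank 2367 with tyrosol, against rank 474 untreated.

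The other high-affinity nitrate transporter gene, crnA, had 156, 135 and 124 RPKM with tyrosol, against 150, 173 and 124 RPKM untreated. The groups overlapped, with untreated replicate 2 above every tyrosol library. The log2 fold change of crnA was 0.12 ± 0.12 (adjusted p = 0.38), and it took a negative sign without untreated replicate 3 (-0.0019) and with library size as the only scaling (-0.11, adjusted p = 0.41). A change of crnA in either direction was thus not detectable, and 93.4% of tested features had a larger fold change in size.

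The nitrite transporter gene nitA lay between these extremes. Its level was 74.9, 67.1 and 64.7 RPKM with tyrosol, against 96.9, 116 and 117 RPKM untreated. The groups did not overlap, but the highest tyrosol library came within 22.1 RPKM of the lowest untreated library. The log2 fold change of nitA was -0.45 ± 0.10 (adjusted p = 0.00075), smaller in size than the median size over all features of 0.93, and it did not pass a test against a change of at least 2-fold.

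Set against each other within a library, the transporters changed places. The crnB transcript made up 17.7%, 18.2% and 17.5% of the summed transporter RPKM with tyrosol, against 51.5%, 45.0% and 47.6% untreated. The crnA share was 55.6%, 54.7% and 54.2% with tyrosol, against 29.4%, 33.0% and 26.9% untreated. So crnB was the most abundant transporter transcript in every untreated library and the least abundant in every tyrosol library. The nitA share was 26.7%, 27.2% and 28.2% with tyrosol and 19.1%, 22.0% and 25.4% untreated, with groups that lay apart by only 1.25 percentage points. Each of these 3 shares gave p = 0.10 in the two-sided exact permutation test, again the smallest possible, and 0.10 after adjustment. The shares are parts of the same sum, so a lower share of crnB raises the others and the 3 tests are not separate results. The crnA level itself was not called (log2 fold change 0.12, adjusted p = 0.38 by edgeR).

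The summed reductase and transporter levels also changed relative to each other. Not every transporter gene took part, since crnB (log2 fold change -2.19) fell nearly as far as niaD (-2.29). The summed reductase level was 0.855, 0.963 and 1.01 times the summed transporter level with tyrosol, against 3.02, 2.92 and 2.69 times untreated. The summed transporter level averaged 252 ± 26.1 RPKM with tyrosol and 498 ± 32.8 RPKM untreated, and the summed reductase level 237 ± 3.99 RPKM with tyrosol and 1436 ± 170 RPKM untreated (SD, n = 3 each). Reads of all 6 genes together made up 0.137%, 0.131% and 0.125% of the counted reads with tyrosol, against 0.614%, 0.614% and 0.503% untreated. The exact permutation test of that total gave p = 0.10, both raw and adjusted.

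**Figure D2:**
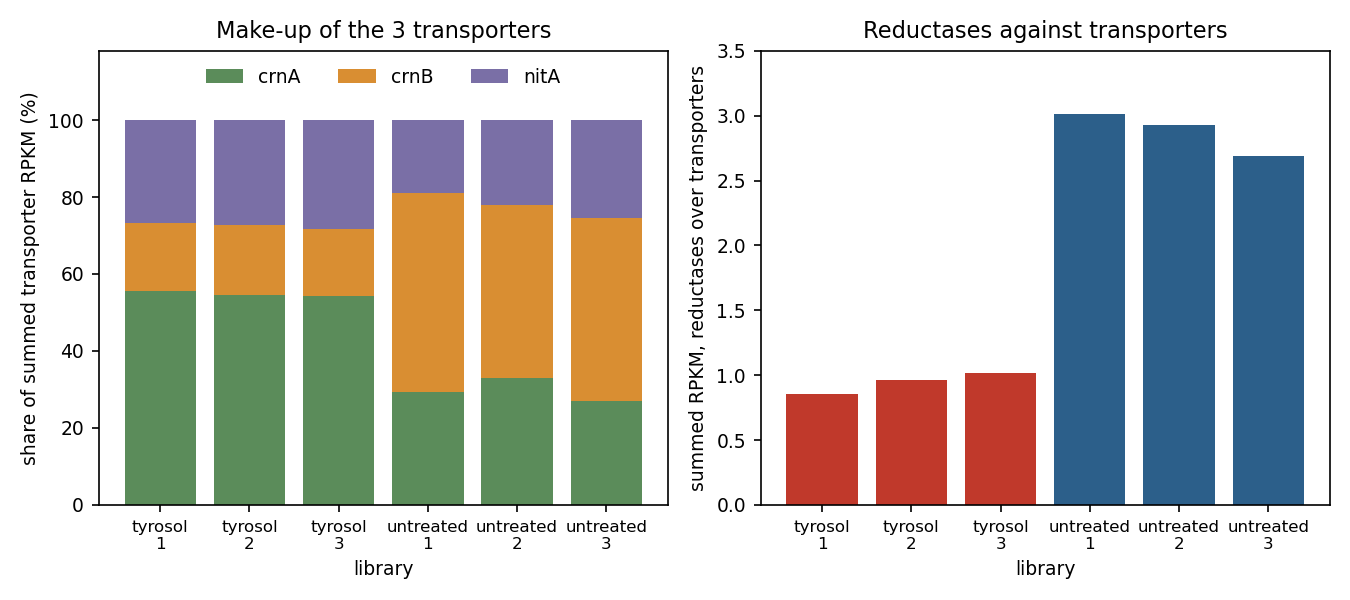
Left, percent of the summed transporter RPKM held by crnA, crnB and nitA in each library; right, summed RPKM of niaD and niiA divided by that of the 3 transporter genes. The crnA share is at least 54.2% in the 3 tyrosol libraries and at most 33.0% in the untreated ones, and the ratio on the right is 0.855 to 1.01 with tyrosol and 2.69 to 3.02 untreated.

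The regulator gene nirA, which encodes the pathway's own zinc cluster activator, went the other way. It had 28.2, 28.9 and 29.1 RPKM with tyrosol, against 19.6, 17.6 and 17.03 RPKM untreated. Every tyrosol library was above every untreated library, and nirA was still the least abundant of the 6 transcripts in both groups. The nirA mean was 28.8 ± 0.457 RPKM with tyrosol and 18.1 ± 1.37 RPKM untreated (SD, n = 3 each), and the log2 fold change was 0.89 ± 0.09 (adjusted p = 5.5e-07). That rise is short of 2-fold and close to the median size of change over all features. Relative to its target niaD, nirA stood at 0.447, 0.455 and 0.450 with tyrosol and 0.051, 0.045 and 0.054 untreated, a 9.04-fold difference of the mean ratios (exact permutation p = 0.10, and 0.10 adjusted).

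In order of mean level, the tyrosol libraries ran niiA, crnA, nitA, niaD, crnB and nirA, and the untreated libraries ran niiA, niaD, crnB, crnA, nitA and nirA. With tyrosol the neighbours nitA and niaD could hardly be separated, since nitA was 1.0001 to 1.18 times niaD within a library. Untreated, crnA and nitA were the closest neighbours, crnA being 1.06 to 1.54 times nitA within a library. The other neighbours in either order differed by more than the spread between libraries, the next closest being niiA at 1.13 to 1.35 times crnA with tyrosol.

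All 15 pairs of the 6 genes were compared by their log2 ratio within each library. In 14 pairs the tyrosol libraries lay apart from the untreated ones, with an exact permutation p of 0.10 (0.107 adjusted over the pairs). Taken singly, 84.8% of tested features had RPKM groups that did not overlap. The share for pairs of other features was not computed, so the count of 14 is not read as particular to these genes. The remaining pair of the 15 was niaD and crnB, genes that are not neighbours. Their log2 ratio was 0.51 with tyrosol and 0.61 untreated, a difference of -0.09 ± 0.11 (SE, exact p = 0.40, adjusted 0.40), and the differences between single libraries ran from -0.37 to 0.16. The niiA to crnB log2 ratio differed by -0.21 ± 0.09 and was barely apart, the differences between single libraries running from -0.45 to -0.0073. By contrast crnA and niiA, which are close neighbours, had a niiA to crnA log2 ratio of 0.33 with tyrosol and 2.85 untreated. The difference for that pair was -2.53 ± 0.10.

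**Figure D3:**
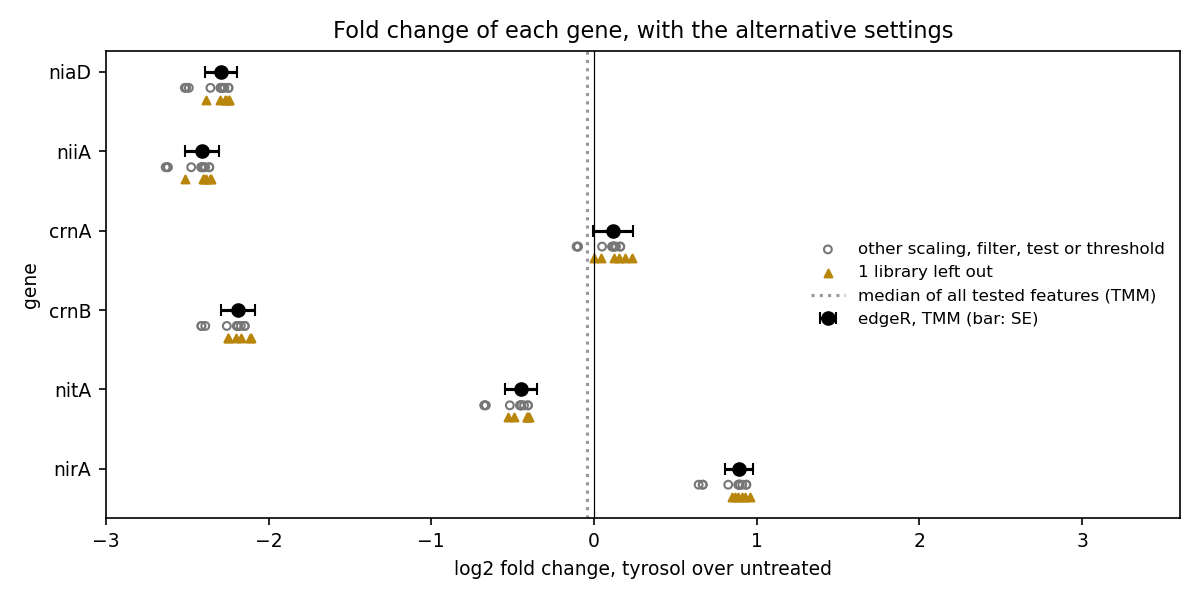
Log2 fold change of each gene, tyrosol over untreated, with the SE of the edgeR fit as a bar, 12 other settings as open circles and 6 fits without a library as triangles. The values for niaD, niiA and crnB lie at -2.11 or lower, those for nirA at 0.64 or higher, and those for crnA fall on both sides of 0.

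The 3 clustered genes were set against their surroundings in the gene order of the reference table. The 5 genes on each side went both ways, 4 raised, 4 lowered and 2 not called, against 40.6% of all features raised and 42.9% lowered, and their median log2 fold change was 0.04. Of the 4 rises, those of AN1002 (0.28) and AN1001 (0.48) were not called by library size alone, where they were 0.055 (adjusted p = 0.61) and 0.26 (adjusted p = 0.15). The next gene beyond niaD, AN1005, had 8.56, 8.77 and 7.79 RPKM with tyrosol, against 10.03, 10.5 and 10.3 RPKM untreated. The AN1005 log2 fold change was -0.07 ± 0.10 (adjusted p = 0.48), but AN1005 was called lower by library size alone (-0.30, adjusted p = 0.012) and by limma on log2(RPKM + 1) (-0.27, adjusted p = 0.024). The gene beyond crnA, AN1009, fell by 2.06 ± 0.33 on the log2 scale (adjusted p = 6e-05), from few reads: 8, 7 and 7 with tyrosol and 28, 51 and 29 untreated. A filter of at least 50 reads in 3 libraries removed AN1009, and under 11 other settings its log2 fold change ran from -2.28 to -1.66. Falls close to that of niiA and niaD were therefore seen in AN1009 but in none of the other 9 flanking genes, whose log2 fold changes ran from -1.08 to 0.83. The reference table also places AN10143 between crnA and niiA, but the deposited data held no values for it. In the reference table none of the 6 genes overlaps another gene.

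**Figure D4:**
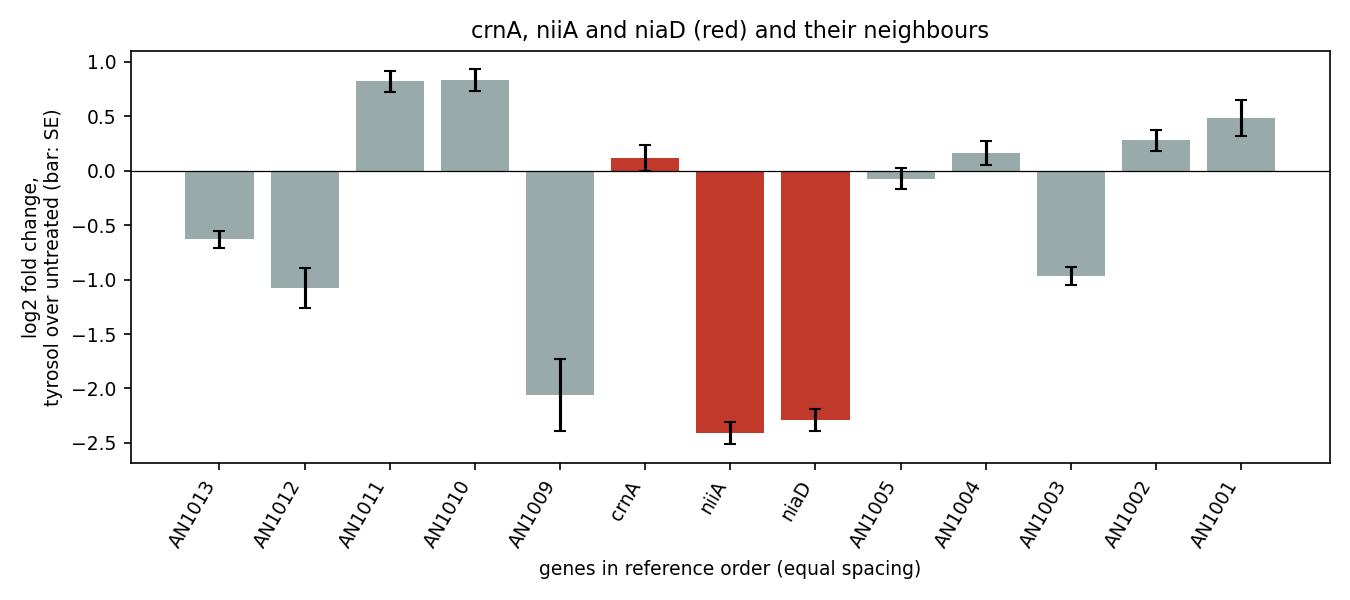
Log2 fold change, tyrosol over untreated, with its SE, for crnA, niiA and niaD (red) and the 5 measured genes on either side (grey), in the order of the reference table and evenly spaced. The red bars of niiA and niaD reach -2.41 and -2.29, that of crnA is 0.12, and AN1009 is at -2.06.

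Of 38 symbols listed for nitrogen genes related to this pathway, the reference table held 7, and fhpA was added after its value was seen. No gene of the molybdenum cofactor, which nitrate reductase carries, was among them. The flavohaemoprotein gene fhpA (AN7169), whose product turns nitric oxide into nitrate, had 247, 256 and 273 RPKM with tyrosol, against 1275, 1168 and 781 RPKM untreated. Its groups were well apart, and the log2 fold change was -1.83 ± 0.15 (adjusted p = 9.5e-08).

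The genes of the general nitrogen regulator and of glutamine synthetase were higher with tyrosol. The AreA gene had 107, 107 and 98.7 RPKM with tyrosol, against 45.1, 39.2 and 33.7 RPKM untreated, and its log2 fold change was 1.63 ± 0.11 (adjusted p = 9.1e-09). Glutamine synthetase, which fixes the ammonium formed from nitrite, had its transcript glnA at 3938, 3902 and 3872 RPKM with tyrosol, against 1129, 966 and 1012 RPKM untreated. The glnA log2 fold change was 2.14 ± 0.09 (adjusted p = 9.2e-11), of nearly the same size as the falls of niaD and crnB and opposite in sign. Both regulators of the pathway, nirA and areA, were thus higher with tyrosol, while niaD, niiA and crnB were lower.

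Genes for other nitrogen sources had smaller log2 fold changes than areA and glnA. The proline transporter gene prnB rose by 0.95 ± 0.14 and prnC, a gene of proline breakdown, by 0.72 ± 0.16 on the log2 scale (adjusted p = 2.9e-05 and 0.001), both at under 9 RPKM in every library. The proline oxidase gene prnD had 0 to 3 reads in a library and was not tested. The purine hydroxylase gene hxA, whose enzyme like nitrate reductase needs the molybdenum cofactor, did not pass, its log2 fold change being -0.17 ± 0.13 (adjusted p = 0.22). The hxA call depended on the settings. By library size alone hxA was at -0.40 (adjusted p = 0.0086), and without untreated replicate 3 it was at -0.31 (adjusted p = 0.0082). The gene hxB, whose product activates that enzyme, fell by 0.88 ± 0.16 (adjusted p = 0.00021). Leaving out fhpA, 4 of the 6 tested genes of these lists rose, 1 fell and 1 did not pass, against 40.6% of all features raised and 42.9% lowered.

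**Figure D5:**
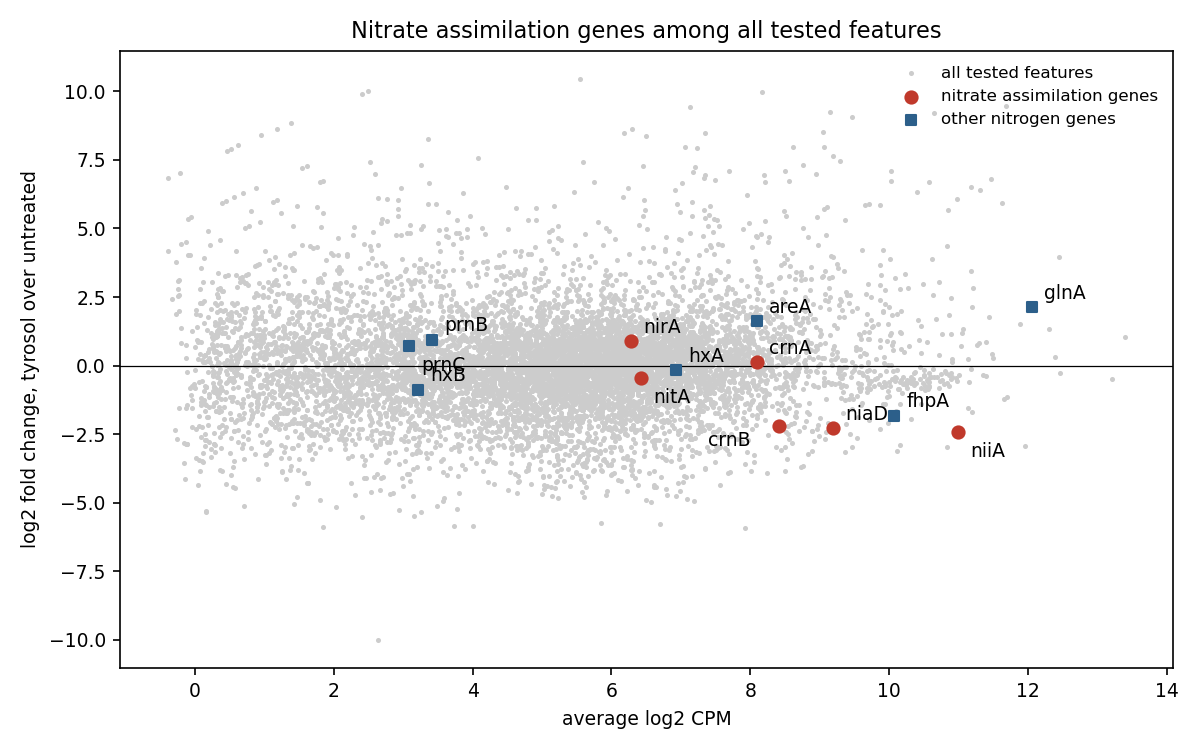
Average log2 CPM against log2 fold change, tyrosol over untreated, for the 8905 tested features (grey), the 6 nitrate assimilation genes (red circles) and 7 other nitrogen genes (blue squares). The reductase genes, crnB and fhpA lie at -1.83 or lower, glnA, areA, prnB and nirA at 0.89 or higher, and crnA at 0.12.

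Genes with the most similar profiles were found by the root mean square difference of log2 CPM, centred on each gene's mean, over the 6 libraries and 7080 other features of at least 3 log2 CPM on average. Across these features niaD ranked 2 in closeness to niiA (difference 0.068), and niiA ranked 3 in closeness to niaD, so few features resembled either more than its partner did. For crnB, which lies elsewhere in the genome, niaD ranked 21 and niiA 41. The distances from niiA to crnA and nirA were 1.27 and 1.65, with ranks 3894 and 5379. Such closeness over libraries of only 2 groups rests mostly on the fold change.

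Among annotated features other than the 6 genes themselves, hem13, which in Saccharomyces cerevisiae encodes coproporphyrinogen oxidase of haem synthesis, was nearest to both niaD and niiA and had a log2 fold change of -2.32 ± 0.11. The next nearest to niaD were ish1 and kipA, a kinesin gene, and to niiA the stress kinase gene sakA and sxa2. Leaving out the 6 genes again, the annotated features nearest to crnB were the lysine synthesis gene lysF, alkB and hemA, the gene of the first enzyme of haem synthesis, with a log2 fold change of -2.05 ± 0.10. For crnA they were mdv1, ssn8 and the gene listed as phoB, none of which passed the test with TMM scaling. With DESeq2 size factors ssn8 passed (0.22, adjusted p = 0.034), and by library size alone phoB passed (-0.26, adjusted p = 0.036). For nitA they were ura6, tof1 and the ribosomal protein gene rpl16a, and for nirA they were fos-1, the peroxisome assembly gene pex19 and dps1.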

How the data were processed

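Per the labels' protocols, TruSeq libraries were made from total RNA of lyophilized samples. HISAT2 2.1.0, DESeq2 1.24.0, edgeR and FastQC appear, without roles, in the submitters' processing notes. Build, annotation, counter and strandedness were not given in the sources used here. Antisense or near-copy reads may be shared. The authors deposited whole-number read counts, gene lengths and RPKM values per the file headers, and RPKM equals the count over length and column total. T columns were read as tyrosol and K columns as untreated (K as the Hungarian for control), with the numbers as replicates. No label says that replicates were separate cultures, so p-values measure the spread between samples, which may be technical.

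The test of the counts used edgeR 4.0.16 (R 4.3.3): filterByExpr, TMM, two-sided quasi-likelihood test, no covariate, Benjamini-Hochberg over 8905 features, call at adjusted p under 0.05. The SE is the log2 fold change's size over the square root of F. Within-library values were compared by exact permutation tests (SciPy 1.17.1). Alternatives used DESeq2 1.42.0 and limma 3.58.1, other scalings, filters, pseudocounts and thresholds, and each library left out. Library totals of 9353438 to 11917409 reads limit precision for weak genes. Same-numbered libraries did not deviate together, so numbers were not treated as pairs.

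RefSeq's gene table (assembly ASM1142v1) gave symbols for 778 features; crnB and nitA follow common usage. The text names the 6 members, listed nitrogen and marker genes the table names, 5 flanking genes a side, and the 3 nearest annotated profiles per member. Members and lists were chosen with earlier results of these data known.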

Additional observations from a re-analysis of the deposited data

How the results depend on the processing

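Under 12 other settings and with each library left out, niaD, niiA, crnB, nitA and nirA kept their direction and their call, except that nitA (-0.45) and nirA (0.89) did not pass the test against a 2-fold change. That test called 3 of the 6 genes and 3539 of all features, against 5 and 7432 at adjusted p under 0.05, as its stricter hypothesis implies. The fold change of crnA was -0.11 with library size only, -0.098 with limma on log2(RPKM + 1) and -0.099 on log2(RPKM + 0.1), and ran from -0.0019 to 0.24 with a library left out. Library size as the only scaling moved the median of all features by -0.22. The difference in summed reads of the 6 genes, tyrosol minus untreated, was -4461 RPM (reads scaled by the library total), and -3927 by TMM library size. By read counts in place of RPKM, the difference in transporter share was 30.9 points for crnA (25.1 by RPKM) and -35.2 for crnB (-30.2), since lengths differ. With a library left out the crnA difference ran from 23.6 to 26.6 points and that of crnB from -31.8 to -28.5.

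The settings were also applied to 34 other genes, those tested from the nitrogen lists, the flanking genes and the nearest annotated profiles. The housekeeping and conidiation marker genes were not among them. Among the 34 genes the sign turned in 4. AN1004 was at -0.062 with library size only, -0.060 with log2(RPKM + 1) and -0.063 with log2(RPKM + 0.1). In the same order mdv1 was at -0.17, -0.17 and -0.17, and at -0.018 with upper-quartile factors, and ssn8 was at -0.051, -0.046 and -0.048. The phoB value was 0.0061 with DESeq2 size factors, 0.0067 with the DESeq2 Wald test, 0.032 without untreated replicate 1 and 0.019 without untreated replicate 2, its range with a library left out being -0.16 to 0.032. The cause was not tested. Calls were lost in 27 cases, 16 of them in the test against 2-fold and the others in AN1001 and AN1002, and gained in 9, spread over hxA, AN1005, ssn8 and phoB.

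Same-numbered libraries had deviation correlations of -0.082, -0.0059 and -0.040, and no library correlated best with its own number. With the replicate block 7383 features and 5 of the 6 genes were called.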
